A study of Homo sapiens with 10 samples.

Results

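Genes of the proteasome were followed in DU145, a line long grown in culture from human prostate cancer, carrying a hairpin RNA against SOX4 (shSOX4, 3 libraries, genotype given as SOX4 knockdown) or a control hairpin (shCon, 3 libraries, genotype given as Scramble). They were found by symbol: every row of the deposited table whose name begins with PSM, a letter from A to G and a number, or is POMP, which gave 48 of 13527 features. Of these, 47 encode proteasome subunits, activators, an inhibitor or assembly factors. The other is PSMC3IP, a cofactor of homologous recombination that shares only the letters of its name (log2 fold change 0.25, adjusted p = 0.361 by edgeR). Both groups grew in the same serum-supplemented medium with no treatment, and nothing in the labels tells how many clones or hairpins lie behind a group. The labels describe a pair of library kits without saying which library used which. RNA was poly-A selected and sequenced as read pairs, and the ATAC-seq libraries of the series (oeSOX4 and Vector) were not analysed here.

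The proteasome is the main protease of the cytosol and nucleus and destroys proteins tagged with ubiquitin. Its barrel-shaped core particle is made of stacked rings of alpha and beta subunits, and the cutting sites lie on the beta subunits PSMB5, PSMB6 and PSMB7. A regulatory particle sits on the barrel: its base holds a ring of ATPases that unfold and push in the substrate, and its lid holds the enzyme that removes ubiquitin. Dedicated chaperones assemble each part, and interferon can replace the catalytic subunits by PSMB8, PSMB9 and PSMB10, which form the immunoproteasome used to make peptides for MHC class I.

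Total counts ran from 31189910 to 34784541 in shSOX4 and from 36360205 to 43361609 in shCon, of which the 48 genes held 1.16 to 1.31% in shSOX4 and 0.995 to 1.12% in shCon. SOX4, the targeted gene, had 4.55, 6.44 and 6.01 CPM (counts scaled to library size with TMM factors) in shSOX4 and 12.9, 10.1 and 8.48 CPM in shCon. It fell by 0.89 in log2 (SE 0.236, edgeR adjusted p = 0.0111), a call lost without shCon 1 (-0.71, adjusted p = 0.0598). PCK2, the other gene of the study's title, averaged 69.9 ± 21.5 CPM in shSOX4 and 188 ± 39.6 CPM in shCon (SD, n = 3 each) and fell by 1.43 (adjusted p = 0.000375, edgeR). The second principal component of log2 CPM, with 15.7% of the variance, set shSOX4 1 (score -35.7) and shCon 3 (-29.3) apart from the other 4 libraries (7.58 to 21.1). All 6 epithelial markers had a row: KRT8 averaged 4603 ± 209 CPM in shSOX4 and 1828 ± 396 CPM in shCon, while CDH1 averaged 3.88 ± 1.28 CPM in shSOX4 and 9.42 ± 1.07 CPM in shCon (SD, n = 3 each). Of markers of other cell types, 3 of 6 for fibroblasts, 1 of 5 for endothelium and 2 of 8 for leukocytes had a row. The fibroblast markers summed to 9.55 to 16 CPM in shSOX4 and 1.69 to 2.48 CPM in shCon, and the endothelial marker CDH5 stood at 4.7 to 6.62 CPM in shSOX4 and 0.525 to 0.942 CPM in shCon. The leukocyte markers summed to 46.3 to 56.5 CPM in shSOX4 and 97.4 to 116 CPM in shCon, mostly CD68. The part of these markers in the results was not tested.

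Proteasome genes that changed were mostly higher in shSOX4. Of the 48 genes 18 rose (37.5%) and 2 fell (4.17%), where 17% of all features rose and 15.8% fell (edgeR quasi-likelihood test, adjusted p under 0.05 over all features). Their median log2 fold change was 0.35, against -0.01 over all features, and 40 of 48 had a positive value. Every shSOX4 library lay above every shCon library for 21 of the 48 (43.8%), which was so for 23.1% of all features. The reverse held for 2 of the 48 and for 23.9% of all features. The genes that rose lay in the core particle, the ATPases, the assembly factors and the activators, while no subunit of the lid was called. Among called genes PSMD10 had the largest log2 rise (1.67, SE 0.244), close to that of PSMC2 (1.62, SE 0.233). PSMC2 had the smallest adjusted p (0.000193, against 0.000215 for PSMD10, edgeR). The larger of the 2 falls was that of PSMD2. The authors' deposited table, from the same libraries, calls 20 of the 48 up and 2 down at a false discovery rate under 0.05 (19.2% and 17.8% of all features). These include all 18 rises listed here. Its false discovery rates lie close to the adjusted p-values of DESeq2 run here (0.000839 against 0.000841 for PSMB9). DESeq2 also called 20 up and 2 down, so the deposited calls and those of DESeq2 are not separate support. In bulk RNA, fewer cells of a type and less RNA per cell cannot be told apart. Without both shSOX4 1 and shCon 3, 24 of the 48 rose and 2 fell. In that fit more features were called over the whole table too. Of all 13527 features 2890 rose and 2642 fell, against 2295 and 2136 with all libraries.

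**Figure D1:**
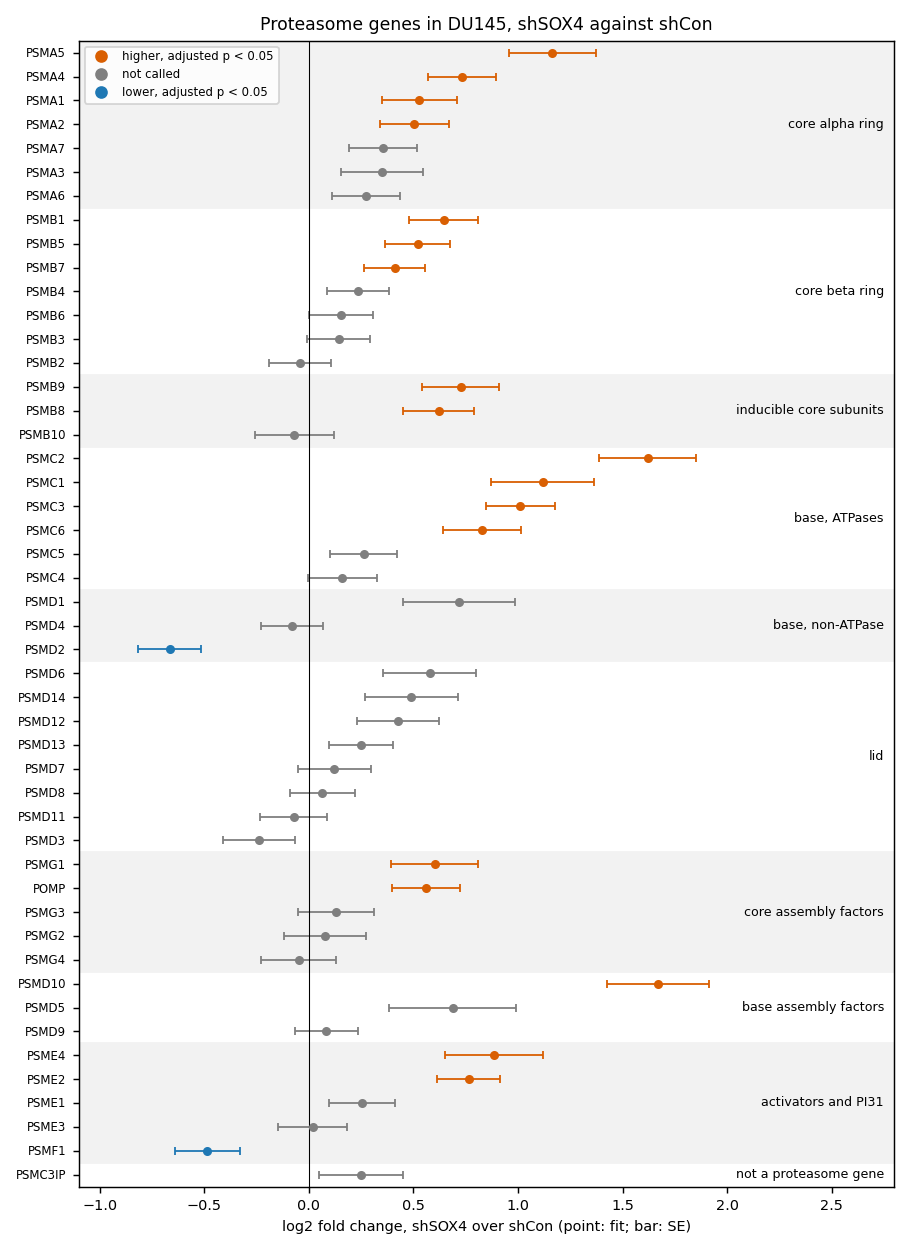
Log2 fold change of shSOX4 over shCon for the 48 genes found by symbol, grouped by their place in the proteasome (points, edgeR fit; bars, SE; colour, call at adjusted p under 0.05). Of the 20 coloured genes 18 lie to the right of 0, and PSMD2 and PSMF1 lie to the left.

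Promoters are shown for the 2 genes with the largest rises (PSMC2 and PSMD10), for PSME2, an activator that rose with little spread, and for both genes that fell (PSMD2 and PSMF1). They run from 250 bases before to 50 bases after the start, as RefSeq gives them on GRCh38.p14. Capitals mark the motifs searched, on either strand: TGACNNNGC, the core of the antioxidant response element bound by NRF1 (NFE2L1) with small MAF proteins, known to drive proteasome genes; CCAAT, bound by NF-Y; ACAAAG, a SOX core; and GCGCATGC, bound by nuclear respiratory factor.
PSMC2, chr7:103347393-103347692, plus strand: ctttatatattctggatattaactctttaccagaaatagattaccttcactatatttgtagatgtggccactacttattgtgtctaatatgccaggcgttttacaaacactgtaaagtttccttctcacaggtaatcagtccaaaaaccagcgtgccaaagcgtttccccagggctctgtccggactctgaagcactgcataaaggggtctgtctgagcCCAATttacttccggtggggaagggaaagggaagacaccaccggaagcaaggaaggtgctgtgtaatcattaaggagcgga
PSMD10, chrX:108091493-108091792, minus strand: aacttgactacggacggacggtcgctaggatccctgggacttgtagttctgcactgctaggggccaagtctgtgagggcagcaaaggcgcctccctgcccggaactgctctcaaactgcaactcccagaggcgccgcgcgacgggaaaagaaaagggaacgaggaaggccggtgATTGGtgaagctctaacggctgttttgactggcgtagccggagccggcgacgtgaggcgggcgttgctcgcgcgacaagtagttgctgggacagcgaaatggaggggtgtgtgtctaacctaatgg
PSME2, chr14:24146561-24146860, minus strand: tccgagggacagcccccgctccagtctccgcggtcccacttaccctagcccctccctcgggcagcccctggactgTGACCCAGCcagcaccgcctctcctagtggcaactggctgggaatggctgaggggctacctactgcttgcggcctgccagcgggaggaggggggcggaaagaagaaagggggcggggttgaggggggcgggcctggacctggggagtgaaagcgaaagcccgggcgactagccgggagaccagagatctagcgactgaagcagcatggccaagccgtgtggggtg
PSMD2, chr3:184298991-184299290, plus strand: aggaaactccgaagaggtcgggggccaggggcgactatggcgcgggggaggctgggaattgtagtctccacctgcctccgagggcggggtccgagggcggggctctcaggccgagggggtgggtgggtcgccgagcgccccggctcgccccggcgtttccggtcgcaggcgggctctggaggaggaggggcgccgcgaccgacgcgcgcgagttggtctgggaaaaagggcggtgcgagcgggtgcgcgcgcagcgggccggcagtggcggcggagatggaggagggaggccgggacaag
PSMF1, chr20:1113013-1113312, plus strand: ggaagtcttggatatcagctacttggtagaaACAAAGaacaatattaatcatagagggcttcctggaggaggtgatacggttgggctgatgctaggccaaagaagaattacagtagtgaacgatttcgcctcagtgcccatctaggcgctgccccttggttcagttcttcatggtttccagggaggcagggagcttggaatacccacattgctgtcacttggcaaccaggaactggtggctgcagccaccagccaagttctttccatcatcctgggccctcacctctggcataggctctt

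The capitals are CCAAT starting 31 bases before the start in PSMC2, its reverse complement 76 bases before in PSMD10, an antioxidant response core 175 bases before in PSME2 and ACAAAG 219 bases before in PSMF1. None of the 4 motifs was found in the window of PSMD2. Over the 41 of 47 proteasome genes with a promoter in the RefSeq table, TGACNNNGC was found in 13 (31.7%), against 15% of the 9993 promoters matched to the deposited table. CCAAT was found in 18 of the 41 (43.9%, against 36.1%), ACAAAG in 3 (7.32%, against 9.94%) and GCGCATGC in 2 (PSMA2 and PSMA4, 4.88%, against 5.57%). Matches of different motifs were counted separately even where they could share bases. The antioxidant response core was found in 4 of 16 promoters of genes that rose (25%) and 9 of 25 of the others (36%). CCAAT was found in 8 of the 16 (50%) and 10 of the 25 (40%). ACAAAG was in none of the 16 and in PSMD13, PSMD3 and PSMF1 among the others.

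The ATPase ring of the base rose in 4 of 6 genes (17% of all features rose), with a median log2 fold change of 0.92, the highest of the groups compared. PSMC2 had 71.3, 116 and 116 CPM in shSOX4 1, 2 and 3, against 39.1, 35.8 and 23.6 CPM in shCon 1, 2 and 3. It rose 3.07-fold (log2 1.62, SE 0.233, 95% interval 1.12 to 2.12, edgeR adjusted p = 0.000193). The lowest shSOX4 library, shSOX4 1, still stood above every shCon library. PSMC1 had 120, 216 and 249 CPM in shSOX4 and 105, 98.2 and 65.5 CPM in shCon, a log2 rise of 1.12 (SE 0.247, adjusted p = 0.00404, edgeR). Here shSOX4 1 lay close to the shCon libraries and the other shSOX4 libraries well above them. PSMC3, the most abundant ATPase transcript per length, had 565, 538 and 581 CPM in shSOX4 and 224, 300 and 312 CPM in shCon (log2 1.01, SE 0.164, adjusted p = 0.000514, edgeR), with a narrow range in shSOX4. PSMC6 had 65.2, 55.9 and 65.1 CPM in shSOX4, against 38.9, 38.3 and 27.6 CPM in shCon (log2 0.83, adjusted p = 0.00457, edgeR). In RefSeq's annotation PSMC2 overlaps PMPCB (0.38, adjusted p = 0.199, edgeR) and PSMC1 overlaps NRDE2 (-0.06, adjusted p = 0.84, edgeR), neither of which passed. The calls of the 4 ATPases held without any single library and without both shSOX4 1 and shCon 3. PSMC4 and PSMC5 overlapped between the groups, with log2 values of 0.16 (95% interval -0.19 to 0.51) and 0.26 (-0.08 to 0.60).

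Of the 3 non-ATPase subunits of the base found by symbol 1 fell and 0 rose by edgeR (15.8% and 17% of all features). With 1 up at an unadjusted p under 0.05, 1 rose by DESeq2 and 0 by limma-voom or limma on log2(FPKM + 1). Of all 13527 features 2985 rose unadjusted and 2596 by DESeq2. PSMD2, a large scaffold that docks ubiquitin receptors and shuttle factors, had 633, 605 and 690 CPM in shSOX4 and 904, 995 and 1158 CPM in shCon. It fell by 0.67 in log2 (SE 0.151, 95% interval -0.99 to -0.34, edgeR adjusted p = 0.00469), and the call held without any single library. PSMD4, a ubiquitin receptor, had 634, 587 and 666 CPM in shSOX4, against 590, 706 and 703 CPM in shCon, with no difference detected (-0.08, 95% interval -0.40 to 0.23). PSMD1, the other large scaffold, had 38.8, 78.7 and 75.7 CPM in shSOX4 and 47.8, 42.8 and 26.8 CPM in shCon. Only shSOX4 1 overlapped the shCon range, and the log2 value of 0.72 did not pass (SE 0.267, adjusted p = 0.0515, edgeR). It passed without shSOX4 1 (0.99, adjusted p = 0.00119), without shCon 1 (0.89, adjusted p = 0.0382) and without both shSOX4 1 and shCon 3 (0.77, adjusted p = 0.000458). Without shCon 2, shCon 3, shSOX4 2 or shSOX4 3 it did not pass (0.51 to 0.79, adjusted p of 0.0574 to 0.206, edgeR). PSMD1 and PSMD2 thus had opposite signs, though the difference between them was not tested.

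No gene of the lid found by symbol was called by edgeR, 0 of 8, while 3 rose at an unadjusted p under 0.05. DESeq2 called 1 up, limma on log2(FPKM + 1) 1 and limma-voom 0. The lid's median log2 fold change was 0.18, and its summed level was 1626 ± 109 CPM in shSOX4 and 1560 ± 101 CPM in shCon (SD, n = 3 each). In FPKM the sum was 835 ± 43 in shSOX4 and 757 ± 19.6 in shCon, without overlap. PSMD8, its most abundant transcript per length, had 620, 522 and 560 CPM in shSOX4, against 471, 547 and 611 CPM in shCon (0.06, 95% interval -0.27 to 0.40). PSMD12, the least abundant, had 50.3, 65 and 75.8 CPM in shSOX4 and 47.4, 55.4 and 39.4 CPM in shCon (0.43, adjusted p = 0.111, edgeR). PSMD14, the enzyme that cuts ubiquitin chains off the substrate, had 37.3, 52.6 and 64 CPM in shSOX4 and 44.1, 36.5 and 28.8 CPM in shCon (0.49, adjusted p = 0.103, edgeR). For both genes the groups overlapped through shSOX4 1. Without shSOX4 1, and equally without both shSOX4 1 and shCon 3, 3 lid genes rose: PSMD6, PSMD12 and PSMD14. When any other single library was left out, none of these 3 passed (adjusted p of 0.064 to 0.373, edgeR). With all libraries PSMD6 had a log2 value of 0.58 and missed the threshold (adjusted p = 0.0583, edgeR). PSMD13 had a log2 value of 0.25 from counts but 0.58 with limma on log2(FPKM + 1), where it passed (adjusted p = 0.00665), and its ratio of count to FPKM was lower in shSOX4 by 0.33 on the log2 scale. PSMD3 (-0.24), PSMD7 (0.12) and PSMD11 (-0.07) overlapped between the groups.

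In the alpha ring, which gates the entrance of the core, 4 of 7 genes rose, where 17% of all features did. All 7 had positive values, as did 6637 of all 13527 features. PSMA5 had 152, 194 and 237 CPM in shSOX4, against 99.9, 96.7 and 63.4 CPM in shCon. It rose 2.24-fold (log2 1.16, SE 0.208, 95% interval 0.72 to 1.61, edgeR adjusted p = 0.001). PSMA4 had 302, 283 and 333 CPM in shSOX4 and 196, 201 and 155 CPM in shCon (log2 0.73, adjusted p = 0.00398, edgeR). The groups of both genes stood clear of each other. PSMA1 had 105, 126 and 121 CPM in shSOX4 and 96.7, 81.9 and 65.3 CPM in shCon (log2 0.53, adjusted p = 0.0343, edgeR). PSMA2 had 264, 234 and 293 CPM in shSOX4 and 197, 206 and 154 CPM in shCon (log2 0.50, adjusted p = 0.0318, edgeR). Both of these smaller rises depended on single libraries: 2 alpha genes rose without shCon 3, shSOX4 2 or shSOX4 3, where PSMA1 and PSMA2 both missed the threshold (adjusted p of 0.0563 to 0.144), and PSMA1 also missed it without shCon 2 (adjusted p = 0.0837). PSMA6, the most abundant alpha transcript per length, had 854, 857 and 1022 CPM in shSOX4 and 791, 857 and 614 CPM in shCon (0.27, adjusted p = 0.209, edgeR). PSMA3 (0.35, adjusted p = 0.183) and PSMA7 (0.35, adjusted p = 0.105) did not pass in edgeR, although PSMA7 did without both shSOX4 1 and shCon 3 (0.45, adjusted p = 0.0207). Leaving out a single library never brought PSMA7 under the threshold (adjusted p of 0.0738 to 0.35, edgeR).

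**Figure D2:**
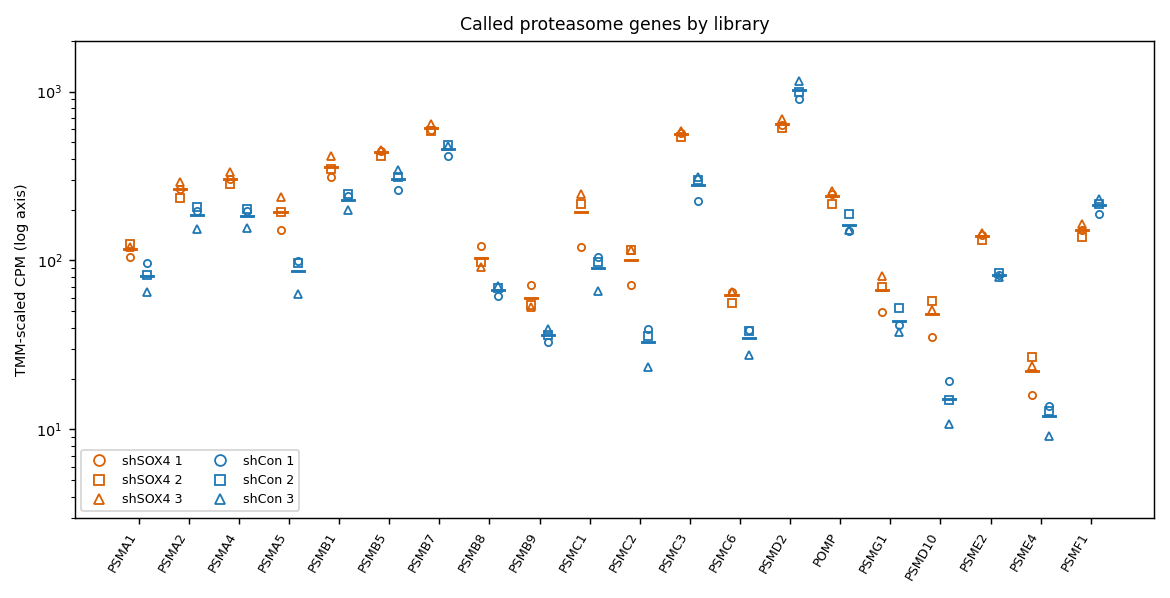
TMM-scaled CPM in every library (log axis) for the 20 proteasome genes called by edgeR, shSOX4 to the left of shCon (symbols, libraries; bars, means of 3). PSMG1 is the gene whose groups overlap, and PSMC1, PSMC2 and PSMD10 show shSOX4 1 below the other shSOX4 libraries.

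Of the 7 constitutive beta genes 3 rose (17% of all features did), among them the catalytic subunits PSMB5 and PSMB7. PSMB1 had 310, 350 and 415 CPM in shSOX4 and 241, 246 and 199 CPM in shCon (log2 0.65, SE 0.165, edgeR adjusted p = 0.00938). PSMB5, which cuts after hydrophobic residues and is the target of bortezomib, had 445, 415 and 451 CPM in shSOX4 and 261, 310 and 342 CPM in shCon (log2 0.52, SE 0.155, adjusted p = 0.02, edgeR). PSMB7, which cuts after basic residues, had 593, 588 and 647 CPM in shSOX4 and 417, 482 and 477 CPM in shCon (log2 0.41, SE 0.146, adjusted p = 0.0436, edgeR). In all 3 genes the groups did not overlap. PSMB6, which cuts after acidic residues, had 463, 397 and 428 CPM in shSOX4 and 335, 408 and 415 CPM in shCon, with overlap (0.15, 95% interval -0.17 to 0.48). PSMB2 had 241, 231 and 242 CPM in shSOX4 and 228, 244 and 262 CPM in shCon (-0.04, 95% interval -0.36 to 0.27), with little spread in shSOX4. PSMB4, the most abundant per length, had 1092, 1086 and 1246 CPM in shSOX4 and 853, 1038 and 1017 CPM in shCon and missed the threshold (0.24, adjusted p = 0.231, edgeR), as did PSMB3 (0.14, adjusted p = 0.499). A single beta gene, PSMB1, rose without shCon 1, shCon 2, shSOX4 2 or shSOX4 3, where PSMB5 had adjusted p-values of 0.0566 to 0.077. PSMB7 missed the threshold in these fits (0.107 to 0.129) and also without shSOX4 1 (0.0517).

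Of the 3 immunoproteasome subunits with a row, PSMB8 and PSMB9 rose and PSMB10 did not, where 17% of all features rose. PSMB8 had 121, 97.6 and 91.5 CPM in shSOX4 and 61.9, 69.1 and 70.7 CPM in shCon (log2 0.62, SE 0.169, edgeR adjusted p = 0.0127). PSMB9 had 71.3, 54.8 and 53.3 CPM in shSOX4 and 33, 36.1 and 39.5 CPM in shCon (log2 0.73, SE 0.183, adjusted p = 0.00854, edgeR). Both calls held without any single library, and shSOX4 1 was the highest library for each, unlike for PSMC1 and PSMC2. PSMB10 had 31.9, 28.5 and 32.6 CPM in shSOX4 and 26.6, 32.4 and 38.7 CPM in shCon (-0.07, 95% interval -0.47 to 0.33). PSMB11 and PSMA8, the thymus and testis subunits, had no row and were not analysed here.

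Per length, the immunoproteasome subunits were a minority beside the subunits they replace. In the authors' deposited FPKM (fragments scaled to transcript length and library size), PSMB9 stood at 16.8, 15.1 and 13.4% of PSMB6 in shSOX4 and at 10.7, 9.63 and 10.4% in shCon. This share was higher in every shSOX4 library. PSMB8 stood at 24.9, 21.4 and 18.5% of PSMB5 in shSOX4 and at 22.2, 20.3 and 18.9% in shCon, with overlap, both genes having risen. PSMB10 stood at 4.32, 3.89 and 4.03% of PSMB7 in shSOX4 and at 5.13, 5.39 and 6.58% in shCon, lower in every shSOX4 library. The log2 differences of the ratios were 0.55 for PSMB9, 0.07 for PSMB8 and -0.48 for PSMB10, given without a test.

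**Figure D3:**
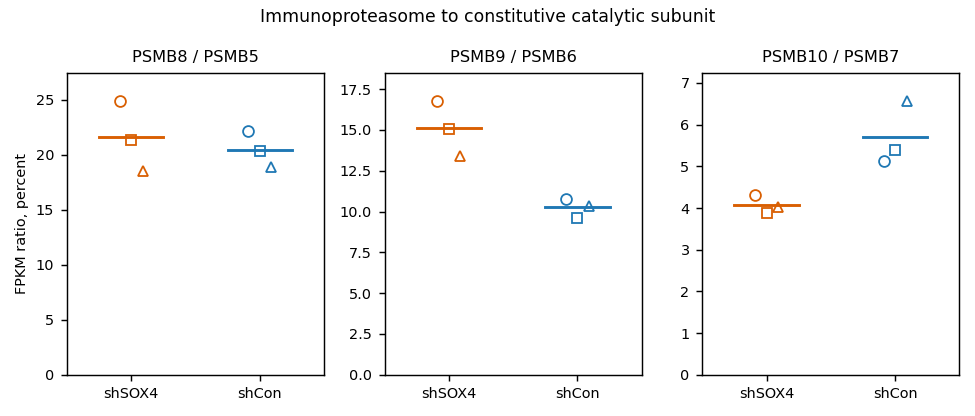
Ratio of deposited FPKM of each immunoproteasome subunit to the constitutive catalytic subunit it replaces, in percent, by library (symbols, libraries 1 to 3 as circle, square and triangle; bars, means of 3; axes start at 0). PSMB9 over PSMB6 is higher in every shSOX4 library, PSMB8 over PSMB5 overlaps, and PSMB10 over PSMB7 is lower in every shSOX4 library.

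Among factors that assemble the core, POMP and PSMG1 rose, 2 of 5, where 17% of all features rose. POMP, which helps core intermediates to join and is then degraded by them, had 248, 215 and 258 CPM in shSOX4 and 150, 188 and 151 CPM in shCon (log2 0.56, SE 0.161, edgeR adjusted p = 0.0169). PSMG1, which with PSMG2 builds the alpha ring, had 49.5, 69.4 and 81.4 CPM in shSOX4 and 41.6, 52.3 and 37.9 CPM in shCon (log2 0.60, SE 0.207, adjusted p = 0.0381, edgeR). It was the only called member whose groups overlapped, shSOX4 1 lying below shCon 2. Its partner PSMG2 had 46.8, 65.2 and 67 CPM in shSOX4 and 62.9, 61 and 45.4 CPM in shCon (0.08, adjusted p = 0.782, edgeR), and PSMG3 (0.13) and PSMG4 (-0.05) overlapped too. This count depended on single libraries. Both genes missed the threshold without shCon 1 or shSOX4 3, where POMP had adjusted p-values of 0.0563 and 0.0603, and PSMG1 also missed it without shCon 3 or shSOX4 2 (0.0771 and 0.121).

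Among the chaperones of the base, PSMD10 (gankyrin, an oncoprotein that also binds RB1 and MDM2) showed the largest change of the family. It had 35.1, 57.9 and 51 CPM in shSOX4 and 19.4, 14.9 and 10.8 CPM in shCon. It rose 3.19-fold (log2 1.67, SE 0.244, 95% interval 1.15 to 2.19, edgeR adjusted p = 0.000215), and the call held without any single library, at 1.48 to 1.90. In RefSeq's annotation PSMD10 overlaps ATG4A, which also rose (log2 1.86, SE 0.325, adjusted p = 0.000857, edgeR) at a lower level, with means of 4.47 CPM in shSOX4 and 1.23 CPM in shCon. The sources used here do not tell how reads of overlapping genes were divided. PSMD5 had 32.6, 83.8 and 82.1 CPM in shSOX4 and 53.5, 39.6 and 30 CPM in shCon. Its shSOX4 1 level lay among the shCon levels, and its log2 value of 0.69 did not pass (SE 0.303, adjusted p = 0.0941, edgeR). It passed without shSOX4 1 (1.02, adjusted p = 0.000776) and without shCon 1 (0.93, adjusted p = 0.0477), so that 2 of 3 base chaperones rose in those fits. Without shCon 2, shCon 3, shSOX4 2 or shSOX4 3 PSMD5 did not pass (0.48 to 0.66, adjusted p of 0.137 to 0.323, edgeR). PSMD9 had 154, 152 and 154 CPM in shSOX4 and 131, 146 and 157 CPM in shCon (0.08, 95% interval -0.24 to 0.41).

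The alternative activators differed among themselves. PSME2, the interferon-inducible beta chain of the PA28 cap, had 141, 133 and 146 CPM in shSOX4 and 82.1, 84.4 and 80.3 CPM in shCon, with little spread in either group. It rose 1.7-fold (log2 0.76, SE 0.151, edgeR adjusted p = 0.00196), and every fit without 1 library gave 0.74 to 0.80. Its partner PSME1 had 84.9, 83.2 and 86.4 CPM in shSOX4 and 67.7, 68.1 and 77.4 CPM in shCon, without overlap but below the threshold (0.26, SE 0.157, adjusted p = 0.225, edgeR). PSME3, the nuclear relative, had 289, 308 and 367 CPM in shSOX4 and 269, 331 and 352 CPM in shCon (0.02, 95% interval -0.33 to 0.37). PSME4, the PA200 activator, had 16, 26.7 and 23.6 CPM in shSOX4 and 13.8, 12.9 and 9.1 CPM in shCon (log2 0.89, SE 0.234, adjusted p = 0.011, edgeR), a call lost without shSOX4 2 (0.73, adjusted p = 0.0702). PSMF1 (PI31), named as an inhibitor of the core and later linked to its transport, had 152, 138 and 164 CPM in shSOX4 and 189, 217 and 230 CPM in shCon. It fell by 0.48 in log2 (SE 0.157, adjusted p = 0.0289, edgeR), a call lost without shCon 2, shCon 3, shSOX4 1 or shSOX4 2 (adjusted p of 0.0511 to 0.15). Without shSOX4 2 a single activator, PSME2, rose.

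Summed over the 14 constitutive core genes, the level was 6135 ± 489 CPM in shSOX4 and 4832 ± 302 CPM in shCon (SD, n = 3 each), a ratio of 1.27. Every shSOX4 library (5788 to 6694 CPM) exceeded every shCon library (4574 to 5164 CPM). The 17 PSM-named genes of the regulatory particle summed to 4404 ± 328 CPM in shSOX4 and 4172 ± 340 CPM in shCon, a ratio of 1.06 with overlapping libraries. The overlap depended on the unit. In FPKM these 17 genes summed to 2130, 2227 and 2378 in shSOX4 and 1894, 2113 and 1989 in shCon. That is a ratio of 1.12 without overlap, beside 1.26 for the core in FPKM. The FPKM sum over all features was itself higher in shSOX4 without overlap (605487 to 630191, against 560547 to 590634 in shCon). Its ratio was 1.06, where the CPM ratio over all features was 0.998. The part of this table-wide offset in the FPKM sums was not tested. Within the regulatory particle the ATPases summed to 1442 ± 150 CPM in shSOX4 and 888 ± 76.3 CPM in shCon. The non-ATPase base genes summed to 1336 ± 84.7 CPM in shSOX4 and 1724 ± 174 CPM in shCon. The difference between the core and the regulatory particle was not tested.

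Subunits that the particle holds in equal number differed widely in transcript level per length. In the alpha ring PSMA6 reached 845 to 1011 FPKM in shSOX4 and 551 to 892 FPKM in shCon, while PSMA5 had 38.9 to 58.8 FPKM in shSOX4 and 15.1 to 26.4 FPKM in shCon. The highest was 17.2 to 21.7 times the lowest in shSOX4 and 31.7 to 36.5 times in shCon, so the alpha ring's levels lay closer together in every shSOX4 library. In the beta ring the range between PSMB4 and PSMB2 was 13.2 to 15 times in shSOX4 and 10.9 to 12.5 times in shCon, the opposite direction. The ATPases ranged 9.45 to 13.9 times in shSOX4 and 10.2 to 23.5 times in shCon, and the lid 22.7 to 35.4 times in shSOX4 and 28.3 to 44.8 times in shCon, with overlap in both. Over the 47 genes, level (log2 mean FPKM of the 6 libraries) and log2 fold change had Pearson's r = -0.38 and Spearman's rho = -0.36, a description across genes that share libraries. The 23 genes of lower level (2.25 to 70.7 FPKM) had a median log2 fold change of 0.58, and the 24 of higher level (76.2 to 1021 FPKM) one of 0.25. All features in those ranges had medians of -0.07 and -0.01.

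**Figure D4:**
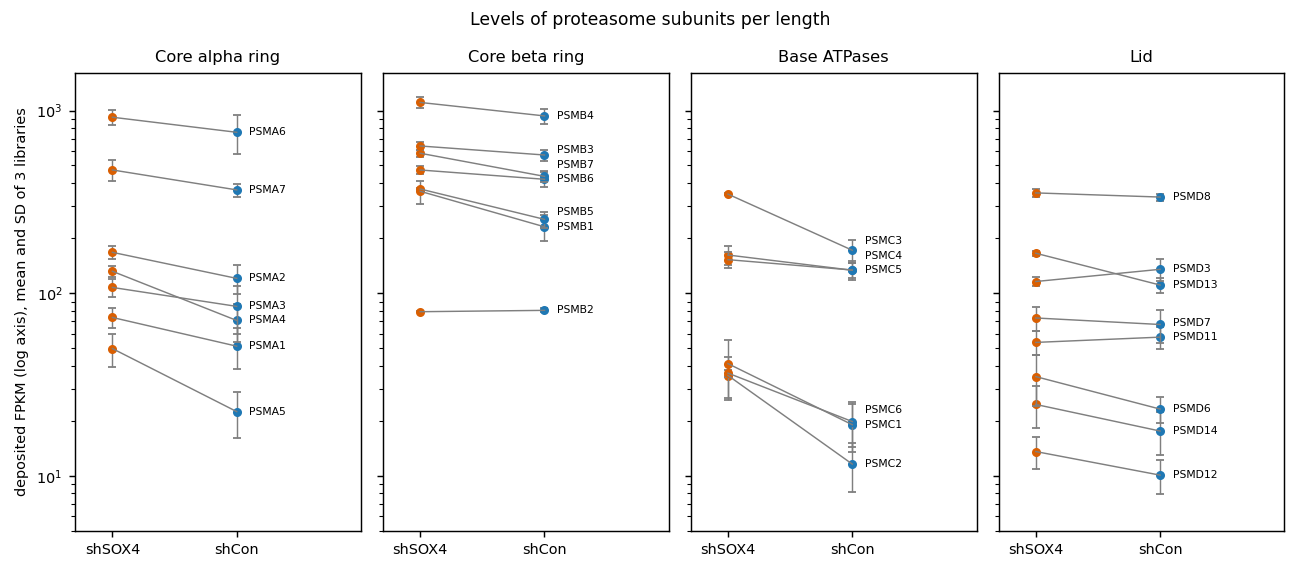
Deposited FPKM (log axis) of the subunits of the alpha ring, beta ring, ATPase ring and lid, shSOX4 to the left of shCon (points, means of 3 libraries; bars, SD; lines join a gene). PSMA5, PSMC1, PSMC2 and PSMC6 lie low in their panels, each with its shSOX4 mean above its shCon mean.

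Both libraries set apart by the second component also differed from their group mates in this family. For PSMC1, log2 CPM in shSOX4 1 was lower than the mean of shSOX4 2 and 3 by 0.95, and in shCon 3 lower than the mean of shCon 1 and 2 by 0.63. The same offsets were -1.35 and -0.62 for PSMD5, -0.99 and -0.75 for PSMD1, -0.70 and -0.67 for PSMC2 and -0.63 and -0.65 for PSMD10. They were 0.40 and 0.20 for PSMB9, 0.36 and 0.11 for PSMB8, and 0.02 and -0.05 for PSME2. Across the 47 genes the offsets of the 2 libraries had Pearson's r = 0.76, and that of shCon 3 had r = -0.64 with the log2 fold change, which uses the same libraries. Without both libraries the log2 rises were 1.19 for PSMC1, 1.63 for PSMC2, 1.67 for PSMD10 and 0.83 for PSMD5 (adjusted p = 0.000575 for PSMD5, edgeR). The part of these offsets in the other results was not tested.

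**Figure D5:**
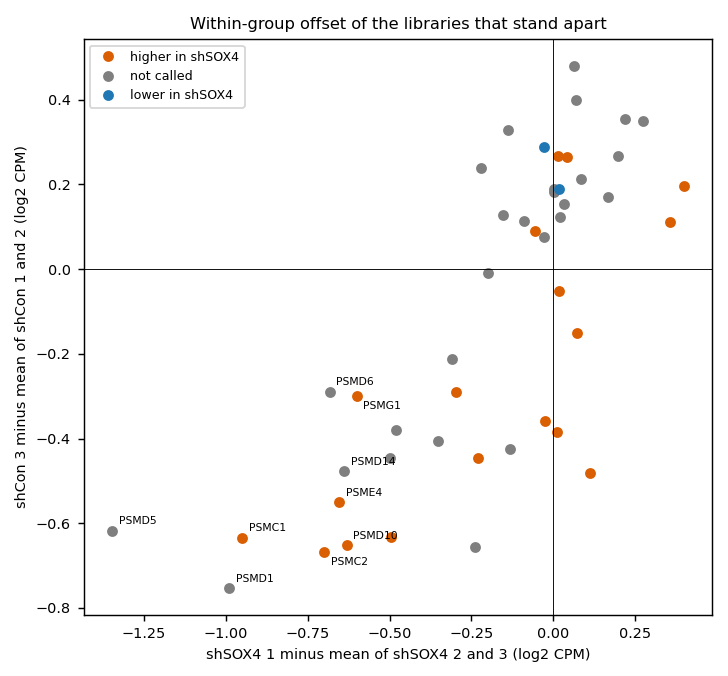
Offset of shSOX4 1 from the mean of shSOX4 2 and 3 (horizontal) and of shCon 3 from the mean of shCon 1 and 2 (vertical), in log2 CPM, for the 47 proteasome genes, coloured by call. PSMD5, PSMD1, PSMC1, PSMC2 and PSMD10 lie low in both libraries, with shSOX4 1 offsets of -0.63 to -1.35.

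Around the proteasome, genes that supply or activate ubiquitin were measured in the same libraries. UBB, a polyubiquitin gene, had 819, 873 and 968 CPM in shSOX4 and 450, 498 and 502 CPM in shCon (log2 0.87, SE 0.146, edgeR adjusted p = 0.000631), and its groups stood clear of each other. RPS27A, which fuses ubiquitin to a ribosomal protein, rose by 0.45 (adjusted p = 0.036, edgeR), and UBA6, an activating enzyme, by 0.82 (adjusted p = 0.0168, edgeR).

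Of 8 regulators of proteasome genes 2 rose and 3 fell by edgeR, where 17% of all features rose and 15.8% fell. NFE2L1, the transcription factor that restores proteasome genes when the proteasome fails, had 286, 261 and 256 CPM in shSOX4 and 373, 383 and 414 CPM in shCon. It fell by 0.54 in log2 (SE 0.147, edgeR adjusted p = 0.0125). Its small MAF partners MAFG and MAFF fell by 0.96 and 0.98 (adjusted p = 0.000598 and 0.00213, edgeR). DDI2, the protease that releases NFE2L1 protein from the membrane, had 5.05, 6.56 and 5.8 CPM in shSOX4 and 2.26, 2.82 and 1.92 CPM in shCon (log2 1.31, SE 0.266, adjusted p = 0.00234, edgeR). NGLY1, which removes its sugars, rose by 0.82 (adjusted p = 0.0131, edgeR), and without shSOX4 3 a single gene of this list rose. The factor's transcript and those of its processing enzymes thus had opposite signs in the same libraries.

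Of 13 partners that belong to, bind or are linked to the particle but carry other names, 0 rose and 1 fell by edgeR. Of all features 17% rose and 15.8% fell. For the 13 genes the counts were 2 and 3 at an unadjusted p under 0.05 and 1 and 3 by DESeq2. For all 13527 features they were 2985 and 2967 unadjusted and 2596 and 2407 by DESeq2. By limma-voom and by limma on log2(FPKM + 1) 0 of the 13 rose and 1 fell. MIDN, midnolin, which brings proteins to the proteasome without ubiquitin, averaged 31.8 ± 4.72 CPM in shSOX4 and 51.9 ± 12.5 CPM in shCon (SD, n = 3 each; log2 -0.71, adjusted p = 0.0182, edgeR). FAM192A (PSME3IP1, -0.41), PAAF1 (-0.43) and UCHL5, a deubiquitinase of the base (0.49), did not pass (adjusted p of 0.0522 to 0.0764). Without shSOX4 2 or shSOX4 3 none of the 13 fell, without shCon 3 2 fell, and without shSOX4 1 2 rose.

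Among 11 ubiquitin shuttles and p97 factors 0 rose and 1 fell by edgeR (17% and 15.8% of all features). The counts were 2 and 1 at an unadjusted p under 0.05, and 0 and 1 by DESeq2, limma-voom and limma on log2(FPKM + 1). For all 13527 features 2985 rose and 2967 fell unadjusted, and 2596 and 2407 by DESeq2. UBQLN4, a shuttle factor, averaged 129 ± 6.71 CPM in shSOX4 and 251 ± 31.5 CPM in shCon (SD, n = 3 each) and fell by 0.96 (SE 0.158, adjusted p = 0.000559, edgeR). UFD1 (0.38), UBQLN1 (0.46) and FAF2 (0.40) did not pass (adjusted p of 0.0778 to 0.115), and 2 of the 11 rose without shSOX4 1.

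Of 18 genes of the MHC class I peptide pathway, which the immunoproteasome feeds, 3 rose (16.7%) and 5 fell (27.8%) by edgeR. Of all features 17% rose and 15.8% fell, so the share that rose was close to that of all features. HLA-F and HLA-E fell by 0.90 and 0.70 (adjusted p = 0.00345 and 0.00554, edgeR), while NLRC5, the transactivator of class I genes, rose by 0.78 (adjusted p = 0.0132, edgeR) and the chaperone gene CANX by 0.64 (adjusted p = 0.0275, edgeR). TAP2 and TAP1, the peptide transporter genes beside PSMB8 and PSMB9 in the MHC region, are named after their values were seen. TAP2 had 109, 100 and 116 CPM in shSOX4 and 134, 138 and 167 CPM in shCon, a fall by 0.43 (adjusted p = 0.0478, edgeR). TAP1 had 115, 90.1 and 101 CPM in shSOX4 and 117, 122 and 146 CPM in shCon (-0.33, adjusted p = 0.14, edgeR). PSMB8 and PSMB9 thus rose beside neighbours with negative values. HLA genes have close relatives, so their reads are uncertain. The number down was 2 when any of shCon 1, shCon 3, shSOX4 2 and shSOX4 3 was left out, and 3 when shCon 2 was. A single gene rose when shSOX4 2 or shSOX4 3 was left out.

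Heat shock genes, whose products share the duty of protein quality control, rose in 8 of 15 cases (17% of all features rose) with 0 down by edgeR, DESeq2, limma-voom or limma on log2(FPKM + 1) and at an unadjusted p under 0.05. DNAJA1 rose by 1.39, HSP90AA1 by 1.02, HSPE1 by 0.89 and HSPA8 by 1.27 (adjusted p of 0.000152 to 0.00204, edgeR). The other 7 of the 15 were not called. The 15 genes summed to 4701, 5654 and 6975 CPM in shSOX4 and 4446, 4302 and 4085 CPM in shCon, lowest in shSOX4 1 among the shSOX4 libraries, as for the summed ATPases. Much of the difference in this sum lay in HSPA8, with 1089, 1763 and 2618 CPM in shSOX4 and 813, 865 and 597 CPM in shCon.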

How the data were processed

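RNA-seq of 6 libraries of DU145 was used, 3 shSOX4 and 3 shCon. Columns lettered SH and NC were read as shSOX4 and shCon with the labels' replicate numbers. The counts are whole numbers per gene, deposited without normalization per the file headers. FPKM values were scaled to length and library size by the authors, per the file headers. The authors' deposited log2 fold changes and adjusted p-values (false discovery rate) come from a tool that no source used here names. For the members these adjusted p-values lie close to those of the DESeq2 fit. Tools listed in the submitters' processing notes, for both assays and without roles, are STAR, HISAT2, MACS2 2.1.1, Bowtie2 and deepTools 2.07, with the build hg19. The counting program and strand setting were not given in the sources used here. Thus reads of overlapping genes and of pseudogene copies (13 for PSMC1 in RefSeq) may be divided in ways that cannot be checked.

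Changes were tested with edgeR 4.0.16 in R 4.3.3 (TMM, filterByExpr, which removed 0 features, quasi-likelihood F test, two-sided, group as the only term), with Benjamini-Hochberg adjustment over all 13527 features and a threshold of 0.05. The fit was tested on simulated data. Levels are TMM-scaled CPM. Offsets and components used log2 CPM with a prior count of 2. Every member is accounted for by name. Values per library are given for called members, for catalytic subunits and for the highest and lowest member of each group, and up to 4 genes of each pathway list with the smallest adjusted p are named. The list of ubiquitin genes is not reported here in full. Members, lists and alternatives were chosen with earlier results of these data known. Alternatives were DESeq2 1.42.0, limma 3.58.1 (voom, or log2(FPKM + 1) with a mean of at least 1 FPKM), other scalings and filters, a replicate block, leaving out newGene loci and leaving out libraries. Whether a group's libraries are separate cultures is not stated, and p-values measure only the spread between libraries, which may be technical. Same-group libraries differed beyond sampling noise (chi-square 28.7 to 139 per degree of freedom). That cannot tell separate cultures from technical repeats, since both can differ in this way. Each library was counted separately. Promoters are RefSeq's on GRCh38.p14, a newer build than that of the table.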

Additional observations from a re-analysis of the deposited data

How the results depend on the processing

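Of the 48 members, all kept their call with limma-voom, with no filter and without newGene loci. Calls changed for 1 with RLE scaling or the 1 CPM filter, 2 with DESeq2, total-count scaling or limma on log2(FPKM + 1), 6 without both shSOX4 1 and shCon 3, and 8 with the replicate block. None of the 20 called genes reversed. Leaving out 1 library gave 12 to 22 members up, 1 to 2 down, a median log2 fold change of 0.25 to 0.43 and 2509 (without shSOX4 2) to 4966 features called in all. It gave 2 to 4 up in the alpha ring, 1 to 3 in the beta ring, 0 to 1 in the non-ATPase base, 0 to 3 in the lid, 0 to 2 among core and 1 to 2 among base assembly factors, and 1 to 2 up with 0 to 1 down among activators. It gave 0 to 2 up and 0 to 2 down among partners, 1 to 3 up among regulators, 0 to 2 up among shuttles, and 1 to 3 up with 2 to 4 down in the MHC class I list.

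Same-numbered libraries did not deviate together (correlations of -0.29, 0.16 and -0.29), and the main fit did not treat the numbers as a pairing. With 3 libraries a group these correlations cannot tell whether same-numbered libraries share a culture or a batch. With the replicate block 11 members rose and 1 fell. There were 2 up in the alpha ring, 1 in the beta ring, 1 among inducible subunits, 0 among core assembly factors, 0 down among activators and 2 down in the MHC list. The best match of shSOX4 1 was shCon 3 (0.49), not its own number.

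In the non-ATPase base 1 rose with DESeq2, RLE scaling, the 1 CPM filter or without both shSOX4 1 and shCon 3. In the lid 1 rose with DESeq2 or FPKM and 3 without both libraries. Among core assembly factors 1 rose with FPKM or total-count scaling, and among base assembly factors 2 without both libraries. Of the partners 1 rose with DESeq2 and 2 without both. Partners down were 2 with the 1 CPM filter or total-count scaling and 3 with DESeq2 or without both. Among regulators 1 rose with FPKM, and 3 shuttles rose without both. In the MHC list 1 rose with FPKM or total-count scaling and 3 fell with RLE scaling. For changes between alternatives the cause was not tested. With 3 libraries a group, the SE of a lid gene's log2 value was 0.153 to 0.222.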
